A study of Flechtneria rotunda with 10 samples.

Results

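In the unicellular green alga Flechtneria rotunda, strain SEV3VF49, a set of assembled genes had its highest expression in drops of culture that had dried completely. The members were chosen on the deposited table of TMM-scaled expression, called the signal here. A gene was taken when its 2 dry values averaged at least 5 and the lower of them was at least 1.5 times the highest value in the 8 other libraries. Of 17148 assembled genes in the table, 190 met this rule (1.11%), below its upper limit of 200, so none was removed. The name of the table labels its genes as differentially expressed. Shares of all genes given here are therefore shares of that selection. Members are numbered from 1 to 190 by falling ratio of the lower dry value plus 1 to the highest other value plus 1. The study sampled 5 stages with 2 libraries each, all from algal cells of this 1 strain, grown for 6 weeks in 150 mL of medium and set out as drops of 40 µL on a cover glass. Hydrated drops were taken at once, early desiccation after 2.5 h and a loss of 25% of the volume, and late desiccation after 7.5 h and a loss of 60%. Dry drops were taken at about 24 h, after 11 h in the chamber as flat spots, and rehydrated drops 1 h after water was returned. All groups share the strain, with no genetic change or added agent given. Whether the 2 libraries of each stage are separate cultures is not stated in the labels. The p-values here measure only the spread between libraries of the same stage, estimated over all 5 stages including the dry one. That spread may be technical.

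Drying removes the free water of a cell, concentrates its contents and leaves membranes and proteins without their hydration shell. Green algae that survive it are known for chaperones, late embryogenesis abundant proteins, antioxidants, protective sugars and polyols, and light-harvesting relatives that discharge excess light energy. Metabolism comes to a halt in a dry cell and resumes after wetting, and RNA held through the dry state can be on hand when water returns. The files give assembly identifiers only, without gene names or functions, so none of the members could be placed in these groups, and no list of named genes or of markers of other organisms in the culture was available. Members are therefore described by their level and timing, with 3 identifiers in all.

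Libraries held between 1696655 and 5409197 expected counts over the genes of the table. The late libraries had reads in 16728 and 16972 genes and the other 8 in 10742 to 13774. Dry libraries had the fewest genes with reads, 10742 and 11512. Column sums of the signal were 1935895 and 1695207 in dry libraries, on average 1.46 times those of rehydrated, 1.99 times those of hydrated and 2.74 times those of late libraries. As bulk samples, these libraries give shares of RNA, and fewer cells holding a transcript cannot be told apart from less of it in each cell.

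The dry level of the members covered a wide range. Their mean dry signal ran from 5.21 to 223493, with a median of 58.7 and quartiles of 21.4 and 278. At least 1000 was reached by 26 members, and 46 stood below 20. Hydrated, early, late and rehydrated means had medians of 5.73, 6.58, 8.51 and 24.9. Together the members took 7.64% ± 0.253 of the counts in dry libraries, against 1.57% ± 0.189 in hydrated, 2.58% ± 0.460 in early, 2.46% ± 0.243 in late and 4.30% ± 1.51 in rehydrated libraries (SD, n = 2 each). The rehydrated spread comes from 3.23% in replicate 1 and 5.37% in replicate 2. These shares follow from the choice of members and support nothing by themselves. The 2 dry libraries were close for most members. The larger dry value was a median of 1.22 times the smaller, and at most 1.5 times it in 155 members, with a maximum of 4.80. The rule favours such closeness by bounding the lower dry value, and no figure for all genes stands beside it, so nothing is read from it. Dry replicate 1 was the higher of the pair in 129 members (67.9%, against 32.0% of all genes).

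**Figure D1:**
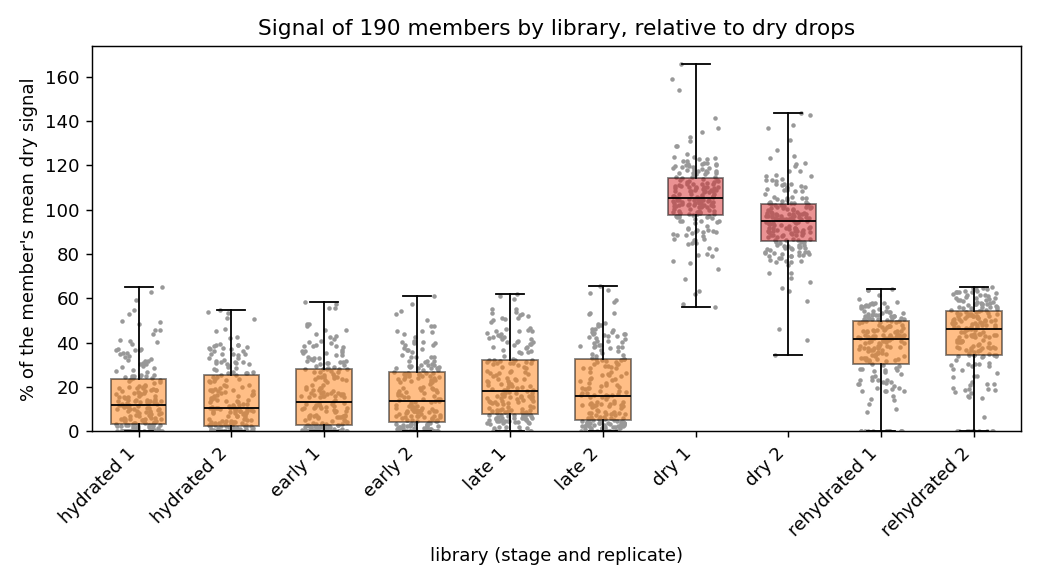
Signal of each of the 190 members in the 10 libraries, as a percentage of that member's mean dry signal (points), with the median, quartiles and full range as a box and whiskers. The median stood at 11.9% and 10.7% in hydrated libraries, 18.1% and 16.2% in late libraries and 41.5% and 46.1% in rehydrated libraries. The rule holds every value outside the dry stage below the dry ones.

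The second highest stage was most often the rehydrated one. The highest value outside the dry stage was in a rehydrated library for 157 members, in a late one for 18, in an early one for 8 and in a hydrated one for 7. In 133 members both rehydrated values exceeded all 6 values from before complete drying, as they did in 14.5% of all genes of the table. Peaks were mostly shallow. The lower dry value was a median of 1.71 times the highest other value (quartiles 1.58 and 2.02), at least 2 times it in 54 members and at least 4 times it in 4. The member nearest the threshold had 12.7 as its lower dry value and 8.49 as its highest other value, just above 1.5 times. The nearest gene outside had 456.8 and 304.6, just under 1.5 times. The lowest mean dry signal among members was 5.21, and 15 genes met the ratio but not the minimum level, the nearest with a mean of 4.74. Applied to each other stage in turn, the same rule took 470 genes peaking in hydrated, 160 in early, 221 in late and 252 in rehydrated drops.

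Membership depended on how libraries were scaled. When every column was rescaled to the same sum, 14 of the 190 members still met the rule and no other gene did. The median ratio of the lower dry value to the highest other value was then 0.989. On that scale both dry libraries were above all 8 others in 89 members and above the 6 libraries from before complete drying in 120 members. The mean dry value was above the mean rehydrated value in all 190 on either scale. The rule and the column sums together require this, so nothing is read from it. The rehydrated mean was a median of 42.7% of the dry mean on the deposited scale and 63.6% with equal sums, and the hydrated mean 11.4% and 22.8%. Which scale is nearer to the RNA content of a cell was not measured. The column sums include the members themselves. Member 9 alone gave 245446 and 201540 of the dry sums of 1935895 and 1695207. In rehydrated libraries it gave 74421 and 72235 of 1389108 and 1092916. The part of such members in the equal-sum result was not tested. The 14 had mean dry signals from 10.2 to 9458, and 10 of them were among the first 20 members by ratio.

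**Figure D2:**
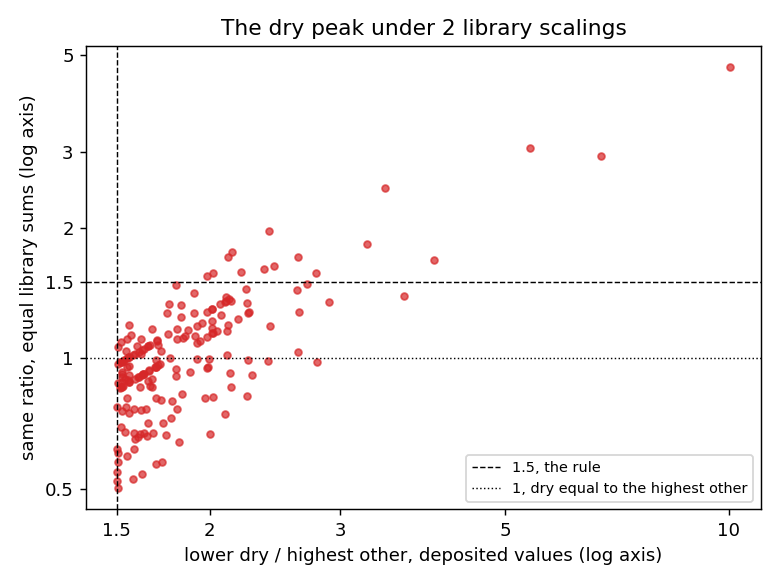
Ratio of the lower dry value to the highest other value for each member (points), on the deposited TMM-scaled values (x axis) and after rescaling every library to the same sum (y axis), both on log axes. Dashed lines mark the 1.5 of the rule and the dotted line a ratio of 1. With equal sums the ratios ran from 0.501 to 4.70, and 89 members stayed above 1.

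Members 1 and 2, with the largest ratios, rested on few reads. TRINITY_DN61020_c0_g2, member 1, had a signal of 30.8 and 3.48 in hydrated, 12.8 and 21.6 in early, 11.9 and 0 in late, 220 and 166 in dry, and 0 and 12.5 in rehydrated libraries. The dry values stand clear of the other 8, which scatter between 0 and 30.8. Its dry values came from 47.5 and 43.1 expected counts, at a relative length of 0.0916. Relative length is a gene's ratio of counts to signal, set to 1 at the median of genes with at least 5 counts in every library. The median over 16740 genes was 0.645. TRINITY_DN65234_c1_g1, member 2, had 18.9 and 5.66 in dry libraries and 0 in every other library apart from 0.564 in early replicate 1. This corresponds to 32.0 and 11.8 expected counts in dry libraries. No count above 0 of either gene was whole, as happens when reads are divided between assembled genes, and both share an assembly component with at least 1 other gene of the table.

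By signal, which by its ratio to the counts is a value per length, the most abundant members had very low relative lengths. The lengths of the contigs themselves were not available. Member 9 had the highest dry signal. Its values were 38213 and 33942 in hydrated, 41523 and 55783 in early, 343 and 657 in late, 245446 and 201540 in dry, and 74421 and 72235 in rehydrated libraries. The late pair is far below every other library. Members 39 and 38 followed, with mean dry signals of 177552 and 50208, and belong to 1 assembly component. All 3 had a relative length of 0.0221. By counts member 9 took 0.675% ± 0.0790 of the dry libraries, against 0.125% ± 0.00298 of the hydrated ones (SD, n = 2 each). The median relative length was 0.445 among the 46 members with a mean dry signal below 20, 0.575 among 68 from 20 to 100, 0.660 among 50 from 100 to 1000 and 0.184 among the 26 above that.

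Comparisons among hydrated, early, late and rehydrated drops were not those of the rule, which sets the same upper bound on all 8 of these libraries. In them 167 members had enough counts to be tested, and 19 of these passed the filter only through their dry libraries. Counts and medians of the members are given as descriptions beside those of all 10467 tested genes. Early, late and rehydrated drops were each compared with the same hydrated libraries, and rehydrated drops also with the late ones, so these comparisons share samples. Over all tested genes the log2 fold changes had medians on the TMM scale of -0.00 in early and 0.04 in late against hydrated, and of -0.09 and -0.11 in rehydrated against hydrated and late. Scaled by library totals alone they had medians of 0.42, 0.48, -0.35 and -0.82, so each direction is relative to the TMM scale. Shares of all tested genes below are from the TMM fit of all libraries unless another fit is named. Member counts from another fit without such a share, as with library totals alone, show only how the number of calls moved. They are not to be set against the TMM shares.

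At early desiccation the members were close to their hydrated level. Of 167 tested members, 9 rose against hydrated (5.39%, against 5.05% of all tested genes) and 2 fell (1.2%, against 6.16%) by edgeR's quasi-likelihood test with an adjusted p below 0.05, beside 11.2% of all tested genes in either direction. The share of rises was near that of all tested genes. The median log2 fold change of the members was 0.05 (quartiles -0.40 and 0.48), and it was the same to 2 decimals with genes at 0 counts held at a floor of 3 counts over the stage. With the dry libraries left out of the fit and of the filter, 8 of 148 members rose and 2 fell. With library totals alone 15 rose and 1 fell. Of 11 calls, leaving out hydrated replicate 1 gave 2, hydrated replicate 2 gave 5, early replicate 1 gave 3 and early replicate 2 gave 7.

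A few members were already high by then. Member 52 had a signal of 170 and 79.9 in early libraries, against 24.7 and 27.8 in hydrated ones, and went on to 309 and 284 in late, 972 and 764 in dry and 398 and 331 in rehydrated libraries. The early and hydrated values do not overlap (log2 fold change 2.21, SE 0.37, edgeR adjusted p = 0.00313). Member 138 had 37.4 and 38.0 in early libraries, against 7.001 and 9.45 in hydrated ones (log2 fold change 2.14, SE 0.32, edgeR adjusted p = 0.00169). Member 96 had 262 and 175 counts in early libraries and 0 in both hydrated ones, at least 121-fold higher if the hydrated libraries together held 3 counts (edgeR adjusted p = 0.0341). Leaving out any of the 4 libraries ended that call (edgeR adjusted p from 0.0638 to 0.152).

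The 2 members that fell at early desiccation were lower at 2.5 h than in either hydrated library and peaked in dry drops later. Member 84 had 8.97 and 1.74 in early libraries, against 23.3 and 29.2 in hydrated ones (log2 fold change -2.33, SE 0.57, edgeR adjusted p = 0.0219). Member 100 had 7.47 and 6.77 in early libraries, against 15.2 and 18.1 in hydrated ones (log2 fold change -1.24, SE 0.32, edgeR adjusted p = 0.0281). Both calls were lost when a hydrated library or early replicate 2 was left out, and that of member 100 also when early replicate 1 was. With library totals alone member 100 had an edgeR adjusted p of 0.141.

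At late desiccation the members moved in both directions. Against hydrated, 34 of the 167 rose (20.4%, against 11.5% of all tested genes) and 16 fell (9.58%, against 13.4%), by edgeR's quasi-likelihood test at an adjusted p below 0.05, beside 24.9% of all tested genes in either direction. The rises reached 4-fold in 18 members and in 5.51% of all tested genes. The median log2 fold change of the members was 0.30 (quartiles -0.15 and 1.43), or 0.26 with genes at 0 counts held at the floor. Without the dry libraries in fit and filter, 31 of 148 members rose and 16 fell, beside 12.3% and 13.7% of the genes then tested. Library totals alone gave 45 rises and 12 falls. The 50 calls were 29 without hydrated replicate 1, 32 without late replicate 1, 36 without hydrated replicate 2 and 46 without late replicate 2. The 34 rising members had median signals of 24.7 in late and 6.11 in hydrated libraries, and later 137 in dry and 75.03 in rehydrated ones.

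Member 118 was among the 3 largest rises. Its signal was 348 and 13.3 in late libraries, against 1.35 and 1.15 in hydrated ones, and it then reached 5849.85 and 4228 in dry and 2619 and 2466 in rehydrated libraries. The late pair differed widely, and both late values were above both hydrated ones. Late against hydrated gave a log2 fold change of 7.11 (SE 1.25, edgeR adjusted p = 0.00135), and 3.60 without late replicate 1 and 8.05 without late replicate 2. Member 188, just above the ratio of the rule, had 8.49 and 8.13 in late libraries, against 0.432 and 0 in hydrated ones (log2 fold change 5.15, SE 0.61, edgeR adjusted p = 8.51e-05). Dry libraries had only 12.7 and 14.7. Member 96 had 303 counts in late replicate 1 and 0 in late replicate 2, beside 0 in both hydrated libraries. Its rise was at least 44.8-fold by the floor (edgeR adjusted p = 0.0390), and without late replicate 1 the rounded counts of both stages were 0.

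The 2 late libraries differed from each other in these members. With 1 added to both values, the signal was at least 2-fold higher in late replicate 1 than in late replicate 2 in 23 members (12.1%, against 3.36% of all genes). The opposite held in 6 members (3.16%, against 5.71% of all genes). Late replicate 1 was the higher of the pair in 131 of 190 members (68.9%, against 42.6% of all genes). The median log2 fold change of the members at late desiccation was 0.12 without late replicate 1 and 0.58 without late replicate 2. The cause of this difference was not tested.

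In 14 of the 16 members that fell at late desiccation both late values were below both early ones. In members 84 and 105 the early and late values overlapped. The 16 were called on their low late values, which favours such a count, and it was not made over all genes. Member 6 had 5.08 and 9.84 in late libraries, against 1378 and 1150 in hydrated ones. It stood at 1763 and 2560 in early, 11313 and 8422 in dry and 2626 and 2906 in rehydrated libraries. The 2 late values are far below all 8 others, and the log2 fold change against hydrated was -7.40 (SE 0.44, edgeR adjusted p = 5.16e-06). Member 9, with the values given above, fell by 6.65 on the log2 scale (SE 0.47, edgeR adjusted p = 9.26e-06). Member 90 had 27.7 and 42.6 in late libraries, against 1747 and 1432 in hydrated ones, a log2 fold change of -5.58 (SE 0.49, edgeR adjusted p = 1.82e-05). It reached 18631 and 16246 in dry libraries. Falls of at least 4-fold were seen in 9 members, and 4.18% of all tested genes fell that far. The 13 other falls ran to a log2 fold change of -1.26. Across the 16, median signals were 47.2 in late and 709 in hydrated libraries, 967 in early, 3583 in dry and 1449.6 in rehydrated ones, and the early mean was below the hydrated mean in 3 of them.

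**Figure D3:**
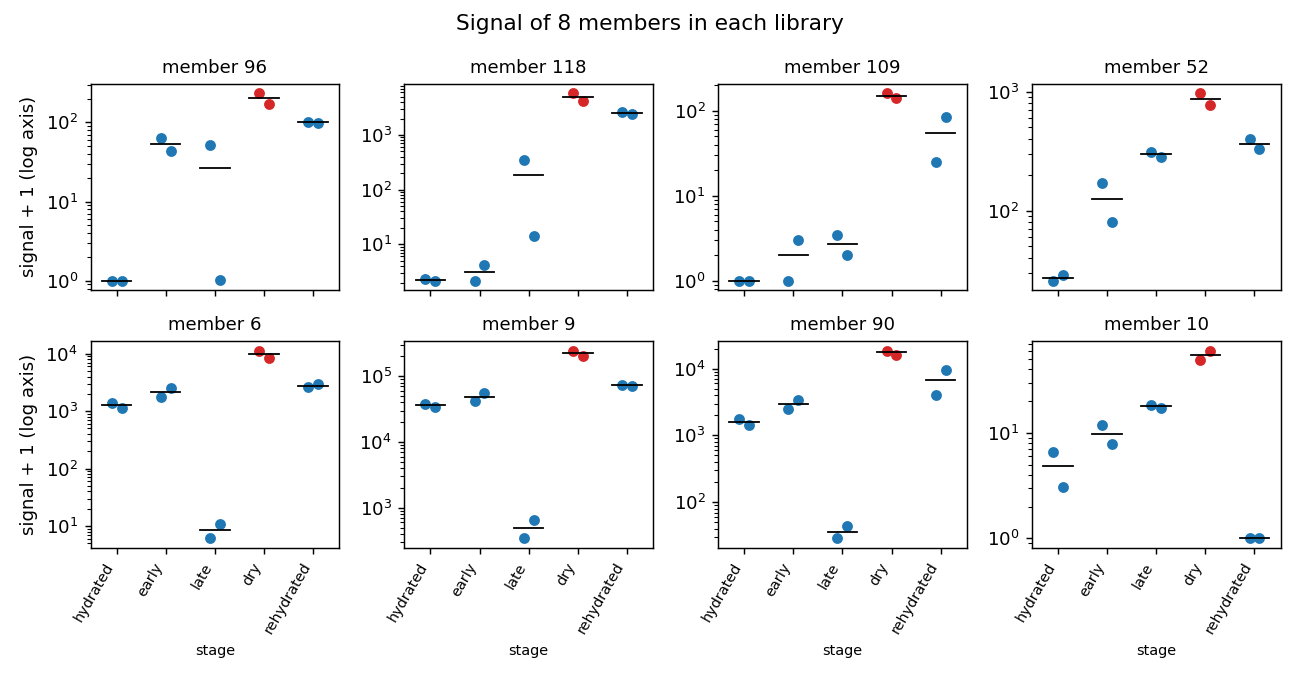
Signal plus 1 on a log axis in each library (points) of 8 members, with dry libraries in red and the mean of the 2 libraries as a bar. The upper row shows members that were low in hydrated drops and the lower row members 6, 9 and 90, whose late values fall below all others, and member 10, which had no rehydrated reads.

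Low relative lengths were common among the members that fell at late desiccation. Relative length is taken from the ratio of counts to signal and set to 1 at the median of genes with at least 5 counts in every library. It was below 0.5 in 13 of the 16, and in 71 of the 167 tested members. The median was 0.142 in the members that fell, 0.762 in those that rose and 0.580 in those not called. Of the 71 short members, 13 (18.3%) fell, as did 288 of 1802 short genes outside the set (15.98%). Of the 96 longer members, 3 fell, and 12.9% of the longer genes outside the set. With each library's trend with length removed, again 34 members rose and 16 fell. In 10 of the 16 at least 1 count was not whole, as happens when reads are divided between assembled genes. The same held in 9 of the 34 that rose, 53 of the 117 not called and 24.2% of all genes. The part of such counts in the falls was not tested.

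**Figure D4:**
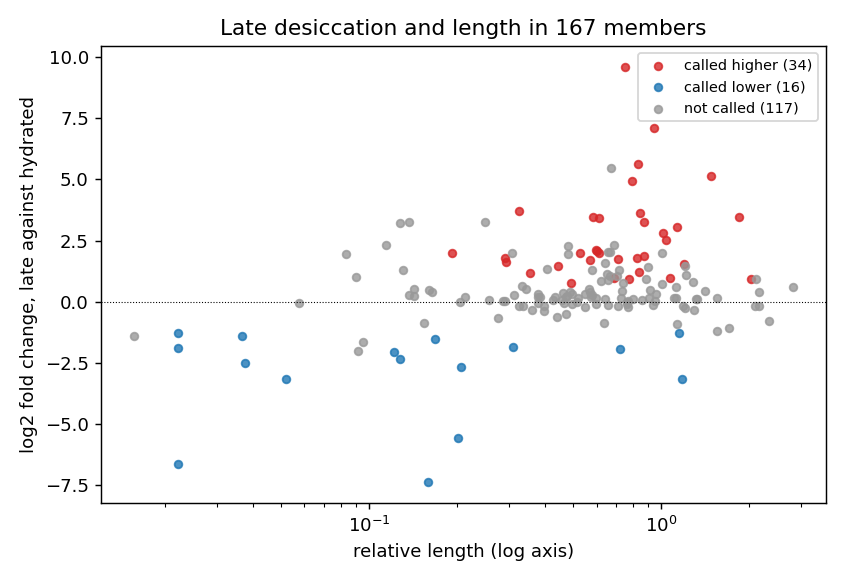
Log2 fold change of late against hydrated drops (y axis) against relative length on a log axis (x axis) for the 167 tested members. Red points are the 34 members that rose, blue points the 16 that fell and grey points the 117 not called. Most falls lie at a relative length below 0.5, and most rises at greater lengths.

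In rehydrated drops the members were below their dry level, as the rule requires. The rehydrated mean was a median of 42.7% of the dry mean (quartiles 33.8% and 50.7%), at least 50% in 53 members and below 25% in 23. By edgeR's quasi-likelihood test 101 of 167 had an adjusted p below 0.05 for rehydrated against dry, where 2.39% of all tested genes were called lower, and nothing is read from this count since the rule used it. With library totals alone it was 9. The largest share was kept by member 166, with 14.6 and 15.1 in rehydrated libraries, against 23.4 and 24.4 in dry ones (62.3%). Members 172 and 132 kept 62.0% and 60.4%. Member 132 had 49.3 and 53.8 in rehydrated libraries, against 85.5 and 85.3 in dry ones, while its 6 earlier values lay between 1.27 and 4.58.

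In 7 members no rehydrated library had a read, which allows up to 3 counts over the stage. Their dry counts summed to between 7 and 54, and 2 of the 7 were tested. TRINITY_DN67941_c0_g2, member 10, had a signal of 0 in both rehydrated libraries, against 48.4 and 59.4 in dry ones. Taking 3 counts as the floor, it was at least 26.6-fold lower (edgeR adjusted p = 0.00927). Its signal was 5.53 and 2.08 in hydrated, 10.8 and 6.84 in early and 17.3 and 16.4 in late libraries, so it had reads at every stage but the last. Member 2 was at least 21.7-fold lower in rehydrated than in dry drops by the same floor (edgeR adjusted p = 0.0339). The contrast of these 2 with dry drops is the rule's own and is given as a description.

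Set against the start, most members remained raised 1 h after wetting. Of the 167 tested, 107 were higher in rehydrated than in hydrated drops (64.1%, against 22% of all tested genes) and 1 was lower (0.599%, against 20.2%), by edgeR's quasi-likelihood test at an adjusted p below 0.05, beside 42.3% of all tested genes in either direction. The median log2 fold change of the members was 1.71 (quartiles 0.77 and 3.14), with or without genes at 0 counts held at the floor, beside -0.09 over all tested genes (quartiles -1.11 and 0.96). A rise of at least 4-fold was called in 67 members, and in 11.3% of all tested genes. With the dry libraries left out of the fit and of the filter, 96 of 148 members were higher, beside 21.5% of the genes then tested. With library totals alone 85 were higher and 1 lower. Over all 190 members, both rehydrated values were above both hydrated ones in 154 (81.1%, against 23.9% of all genes). The single fall was member 10, with 0 counts in rehydrated and 7 in hydrated libraries (edgeR adjusted p = 0.0367).

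The largest rises over the hydrated level were in members with few or no hydrated reads. Member 118 had 2619 and 2466 in rehydrated libraries, against 1.35 and 1.15 in hydrated ones (log2 fold change 10.97, SE 1.39, edgeR adjusted p = 5.84e-05). Member 96 had 250 and 213 counts in rehydrated libraries and 0 in both hydrated ones, at least 233-fold higher (edgeR adjusted p = 0.00531). Member 109 had 54 and 163 counts in rehydrated libraries and 0 in both hydrated ones, at least 109-fold higher (edgeR adjusted p = 0.000111). No hydrated reads at all were found in 14 members, and no early reads in 13, while 2 lacked late reads.

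**Figure D5:**
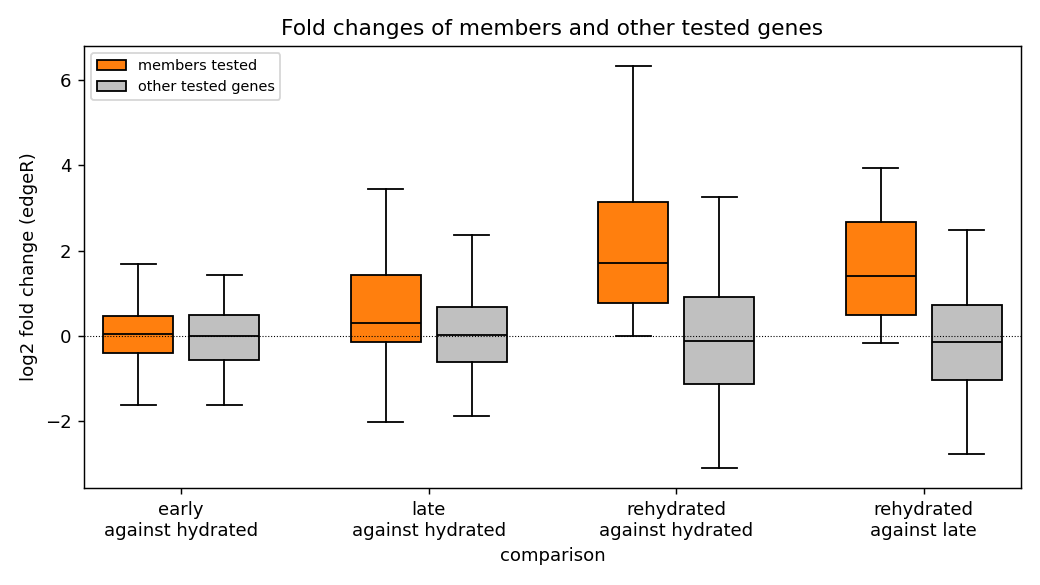
Log2 fold changes by edgeR in the 4 comparisons outside the dry stage, for the 167 tested members (orange) and the other tested genes (grey). Boxes show the median and quartiles and whiskers the central 90% of genes. The members' medians were 0.05, 0.30, 1.71 and 1.41 from left to right.

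Rehydrated drops were also above late desiccation, the last stage sampled before complete drying. Of the 167 members, 91 were higher in rehydrated than in late drops (54.5%, against 20.5% of all tested genes) and 1, member 10, was lower (0.599%, against 16%), beside 36.5% of all tested genes in either direction. The median log2 fold change of the members was 1.41 (quartiles 0.50 and 2.68), beside -0.11 over all tested genes, and 53 rose at least 4-fold, as did 8.31% of all tested genes. These calls are from edgeR's quasi-likelihood test at an adjusted p below 0.05. In the fit without dry libraries 85 of 148 were higher and 1 lower, beside 19.9% and 18% of the genes then tested. With library totals alone 61 were higher and 6 lower. Over all 190 members, both rehydrated values were above both late ones in 144 (75.8%, against 21% of all genes). The largest rises were those of the members that had dipped at late desiccation. Member 6 had 2626 and 2906 in rehydrated libraries, against 5.08 and 9.84 in late ones (log2 fold change 8.61, SE 0.46, edgeR adjusted p = 1.39e-06), and members 9 and 90 had log2 fold changes of 8.04 and 7.74. Member 10 had 0 counts in both rehydrated libraries, against 63 in the late ones, at least 6.17-fold lower (edgeR adjusted p = 0.00137). Member 52, raised since early desiccation, did not pass the threshold here (log2 fold change 0.34, SE 0.34, edgeR adjusted p = 0.452).

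Members were spread over 182 assembly components, the groups of genes that the assembler built from connected sequence. Of the 190, 76 (40%) shared a component with another gene of the table, as did 26.8% of all genes. Only 7 components held more than 1 member, 15 members in all. The largest number was 3, in a component with 19 genes of the table. These 3, members 63, 149 and 161, had mean dry signals of 5045, 1162 and 7216, and each kept between 49.5% and 59.1% of it in rehydrated drops. The members' components held 114 other genes, of which 40 (35.1%) also had both dry values above all 8 others, against 4.43% of all genes outside the set. Reads shared within a component could give such a likeness, which was not tested. At least 1 count was not whole in 84 members (44.2%, against 24.2% of all genes). The median relative length was 0.525 in the 187 members with enough reads to give it, against 0.645 over 16740 genes.

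The 23 members without enough counts for a test had mean dry signals from 5.21 to 40.2, with a median of 10.8. Their dry counts summed to between 4 and 20 over the 2 libraries, and their median relative length was 0.217. Of the first 10 members by ratio, 3 were among them. Their place in the set rests on these few reads.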

How the data were processed

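Ribosomal RNA was removed with oligos, 105 of which were designed for this purpose, before the 10 libraries were sequenced, per the labels' protocols. Tools named in the submitters' processing notes are RSEM 1.2.28, Bowtie2 2.2, Trimmomatic 0.35, CASAVA 1.4 and DESeq2. The sources used here name no genome build or annotation, nor the test by which the tables' genes were called differentially expressed. One deposited table has expected counts for each assembled gene, and no normalisation is stated for it. The other deposited table holds a signal, TMM-scaled by the authors according to the table's name, whose unit before scaling is not stated. Columns were matched to samples by the replicate number and time in their names.

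The rule was applied to the signal. Expected counts were rounded and filtered (filterByExpr of edgeR at its minimum count of 10 and minimum total of 15), leaving 10467 genes, and scaled by TMM (factors 0.529 to 1.54). With edgeR 4.0.16 in R 4.3.3, a quasi-likelihood model with stage as its only term was fitted across all libraries, and 4 comparisons had two-sided tests, adjusted by Benjamini-Hochberg across the tested genes, at a threshold of 0.05. Calls and adjusted p-values of rehydrated against dry come from the same fit, and since the rule used that comparison they are descriptions only. A standard error is the size of a log2 fold change divided by the root of its F. The fit was tested on simulated data for rehydrated against hydrated. A gene's relative length is the median over libraries, with at least 5 counts, of its ratio of counts to signal, after each library's ratios were centred on genes with at least 5 counts in every library. A component is the identifier up to its gene number, and a count was called not whole beyond 0.005 of a whole number.

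The members and lists were chosen with earlier results of these data known. Identifiers were printed for the 2 largest ratios and the 2 largest called falls, which are 3 genes in all. The fall was to be taken from rehydrated against hydrated at 5 CPM or more, where 0 members qualified, so it was taken from rehydrated against dry. Other members described by number are the 3 with the highest dry signal, the 3 largest called rises and falls of at least 5 CPM in each comparison, and the 3 highest shares kept after wetting. All 7 members without rehydrated reads tie for the lowest share. Members 63, 105, 149 and 161 were chosen after their values were seen. Alternatives were other scalings and filters, limma 3.58.1 on the log2 signal with pseudocounts of 1 and 0.1, DESeq2 1.42.0, a block for the replicate number, a fit limited to the stages compared, and fits without each library or the dry stage. Removing the length trend, the equal-sum members and scalings of the dry comparisons were added after the data were seen. Counting limits cover counting error only.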

Additional observations from a re-analysis of the deposited data

How the results depend on the processing

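The rule took 190 genes. It took 14 with columns rescaled to equal sums, 397 on CPM of the counts with TMM factors (176 of the members among them), 54 at a ratio of 2 and 511 at a ratio of 1.2. Leaving out 1 library gave 192 to 551, the highest without dry replicate 2, then 392 without rehydrated replicate 2, 357 without dry replicate 1 and 339 without rehydrated replicate 1. Fewer values then have to meet the rule.

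In early against hydrated, 11 calls became 5 with limma on log2(signal + 1) and 20 in a fit of the 2 stages alone, and ranged from 2 to 7 with 1 library left out. In late against hydrated the 50 calls ranged from 29 to 46 with 1 library left out. Leaving out 1 library gave 82 to 93 calls in rehydrated against hydrated, in place of 108, and 64 to 84 in rehydrated against late, in place of 92. Of the members that meet the rule with equal sums, 13 were tested. In early against hydrated edgeR and DESeq2 called 0 of them (1 at an unadjusted p below 0.05). Both called 1 in late against hydrated and 7 in rehydrated against hydrated. In rehydrated against late edgeR called 7 and DESeq2 called 6. Of all tested genes, edgeR called 11.2%, 24.9%, 42.3% and 36.5% in these comparisons, in that order.

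Same-numbered libraries deviated together by more than 0.1 in 1 of 10 pairs of stages (r from 0.000422 to 0.141), so the numbers were not taken as pairs. With the replicate block the 4 comparisons gave 12, 50, 110 and 95 calls.

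For 18 comparisons of single members, the alternative settings gave 287 values in all. Of these, 261 kept direction and call, 25 lost the call, all at early or late desiccation, and 1 had no direction. The last was member 96 in late against hydrated. Its log2 fold change was 0 without late replicate 1, where the rounded counts of both stages were 0, and 10.39 without late replicate 2. At these depths, members with few counts in both stages could not show a difference.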
